A study of Mus musculus with 40 samples.

Results

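The 37 genes described here are interferon response genes, that is, genes whose transcription is known to be raised by interferons. They were listed by symbol, and all 37 were found among the 22552 genes of the deposited mouse mammary gland table. All 37 were also among the 14273 genes kept, those with 1 FPKM (sequenced fragments divided by transcript length and by the library's mapped total, so that levels of different genes can be set side by side) or more in at least 1 group.

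The series compared RNA from whole mammary tissue of outbred mice, in 31 poly(A) libraries that form 12 groups. Ezh2 KO mice carried floxed Ezh2 alleles (Ezh2f/f) and the MMTV-Cre transgene of line A, with deletion described as specific to the mammary gland. The MMTV promoter drives Cre mainly in mammary epithelium, and whether other cells of these glands kept Ezh2 was not tested. Ezh1 KO mice lacked Ezh1 (E1-/-). Ezh1 het Ezh2 KO mice were heterozygous for Ezh1 (E1+/-) and had floxed Ezh2 with the same Cre line. Control mice carried MMTV-Cre alone, so that Ezh2 KO, Ezh1 het Ezh2 KO and control mice share the transgene, and the label of the Ezh1 KO mice names none. Each of these 4 genotypes was sampled at day 13 (p13) and day 18 (p18) of pregnancy. Ezh2 KO and control mice were also sampled as 12-week-old virgins, before and 2 h after an intraperitoneal injection of 5 µg/g prolactin. The gland without prolactin was the left gland, taken under anaesthesia with its lymph node removed, and the gland with prolactin was the right gland taken afterwards. No vehicle injection is described, so prolactin and the earlier surgery and anaesthesia cannot be told apart.

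The groups held 2 or 3 libraries, but the deposited table gives 1 FPKM value per gene for a whole group. No replicate spread, SD or p-value can therefore be attached to any value below, and every difference is a description of these pooled values. A difference is the log2(FPKM + 1) of the group named first less that of the other group. On this scale the differences of low genes come out too small. A difference of 1 or more in size is called past the threshold. Ezh1 was at 1.06 FPKM in p13 Ezh1 KO glands and 6.17 FPKM in p13 Ezh1 het Ezh2 KO glands, against 14.7 FPKM in p13 control glands. Ezh2 was at 13.7 FPKM in p13 Ezh2 KO glands and 12.9 FPKM in p13 control glands, and at 6.41 FPKM in p18 Ezh2 KO glands and 10.0092 FPKM in p18 control glands. A whole-gene value also covers exons outside the floxed part and cells without Cre, so it does not check the Ezh2 label. In whole tissue, fewer cells of a type and less RNA per cell cannot be told apart.

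Interferons are secreted signals that bind cell-surface receptors and act through JAK kinases. Type I and III interferons activate a transcription factor complex that holds STAT2 and IRF9 and binds the interferon-stimulated response element (ISRE) in DNA. Interferon gamma acts through another DNA element, the gamma-activated site (GAS). The induced genes encode sensors of viral RNA and DNA, the transcription factors themselves, antiviral effectors, guanylate-binding proteins, chemokines and parts of the antigen-processing machinery. EZH1 and EZH2 are histone methyltransferases, and either can serve as the enzyme of Polycomb repressive complex 2, a repressor of transcription. Prolactin, which acts through JAK2 and STAT5, drives the differentiation of the milk-producing epithelium in pregnancy.

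The promoters of 5 members are printed here because they hold matches to the DNA elements named above and because their genes carry the results below. Each is 300 bases long, 250 before and 50 after the RefSeq start, read 5′ to 3′ on the strand of the gene from RefSeq on build GRCm38.p6. Capitals mark matches to the ISRE core (GAAA, any 2 bases, GAAA) or to the GAS core (TTC, any 3 bases, GAA) on either strand. Isg15 lies at chr4:156200769-156201068 on the minus strand, Ifit1 at chr19:34640639-34640938 on the plus strand and Bst2 at chr8:71537423-71537722 on the minus strand. Gbp2 lies at chr3:142620413-142620712 and the first Irf1 promoter at chr11:53769764-53770063, both on the plus strand.
Isg15: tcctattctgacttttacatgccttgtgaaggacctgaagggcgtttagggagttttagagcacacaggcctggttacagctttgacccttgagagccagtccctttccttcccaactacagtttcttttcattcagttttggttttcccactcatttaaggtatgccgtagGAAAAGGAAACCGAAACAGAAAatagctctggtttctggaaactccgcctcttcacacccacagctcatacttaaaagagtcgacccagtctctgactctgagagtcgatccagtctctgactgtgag
Ifit1: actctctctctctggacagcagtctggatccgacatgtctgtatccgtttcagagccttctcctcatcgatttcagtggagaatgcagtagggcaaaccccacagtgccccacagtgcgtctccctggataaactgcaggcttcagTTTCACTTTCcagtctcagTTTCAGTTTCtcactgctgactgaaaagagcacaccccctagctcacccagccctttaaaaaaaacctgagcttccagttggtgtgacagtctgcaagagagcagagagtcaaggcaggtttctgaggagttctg
Bst2: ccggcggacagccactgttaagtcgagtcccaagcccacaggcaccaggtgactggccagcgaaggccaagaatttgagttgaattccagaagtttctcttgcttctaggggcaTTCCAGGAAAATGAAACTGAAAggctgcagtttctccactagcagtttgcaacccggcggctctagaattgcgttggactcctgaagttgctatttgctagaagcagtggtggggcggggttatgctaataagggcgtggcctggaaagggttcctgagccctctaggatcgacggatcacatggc
Gbp2: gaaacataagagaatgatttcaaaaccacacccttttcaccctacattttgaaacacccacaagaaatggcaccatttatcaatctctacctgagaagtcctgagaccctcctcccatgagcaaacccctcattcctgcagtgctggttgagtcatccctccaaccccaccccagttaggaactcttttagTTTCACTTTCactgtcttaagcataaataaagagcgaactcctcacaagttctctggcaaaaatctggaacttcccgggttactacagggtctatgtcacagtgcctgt
Irf1: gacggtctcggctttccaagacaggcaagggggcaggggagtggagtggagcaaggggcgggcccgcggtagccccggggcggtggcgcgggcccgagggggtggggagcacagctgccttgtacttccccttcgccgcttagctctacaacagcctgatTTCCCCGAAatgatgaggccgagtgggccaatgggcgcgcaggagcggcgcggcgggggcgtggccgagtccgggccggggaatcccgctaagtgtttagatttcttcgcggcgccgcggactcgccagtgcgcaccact

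The Isg15 promoter held 3 ISRE matches in a row, each overlapping its neighbour, starting at bases -78, -72 and -66 from the start site. Ifit1 held 2 that do not overlap, starting at -104 and -85, and Bst2 held 2, starting at -130 and -124, the first of which overlaps a GAS match. Gbp2 held 1 ISRE match, at -59. Irf1 held a GAS match and no ISRE match.

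Of the 37 members, 27 had at least 1 promoter under their deposited symbol among the RefSeq sequences used. The others were Dhx58, Zbp1, Mx1, Mx2, Oas2, Usp18, Rtp4, Parp9, Parp14 and Gbp1. RefSeq names Gbp1 Gbp2b, and its promoter was not looked up under that name. An ISRE core was found in 13 of the 27 (48.1%), against 3.99% of the 27025 genes with a promoter. The 13 were Ifih1, Ddx58, Stat2, Ifit1, Ifit3, Oas1a, Oas3, Isg15, Rsad2, Bst2, Gbp2, Gbp3 and Cxcl10. A GAS core was found in 6 of the 27 (22.2%), namely Irf1, Ifit2, Oas1a, Bst2, Ifi35 and Psmb8, against 9.55% of all genes. Tap1 and Psmb9 start 226 bases apart on opposite strands, so their promoter windows share 275 bases. These counts describe letters in the windows and not bound sites.

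Most of the 37 genes varied together across the 12 groups. The median level of the members was 28.7 FPKM in p13 Ezh2 KO glands, 29.1 FPKM in p13 Ezh1 het Ezh2 KO glands and 16.1 FPKM in p13 Ezh1 KO glands, against 10.1 FPKM in p13 control glands. At p18 the order was the other way round, with medians of 13.9 FPKM in Ezh2 KO glands, 20.1 FPKM in Ezh1 het Ezh2 KO glands and 22.9 FPKM in Ezh1 KO glands, against 26.7 FPKM in control glands. In virgin glands the median was 5.98 FPKM with prolactin and 8.09 FPKM without in Ezh2 KO, and 9.95 FPKM with prolactin and 8.08 FPKM without in controls. The p13 Ezh2 KO and Ezh1 het Ezh2 KO medians lie next to each other, and with no replicates their order cannot be told. Of the 37 genes, 11 had their highest value in p18 control glands, 10 in p13 Ezh1 het Ezh2 KO glands and 8 in p13 Ezh2 KO glands. The lowest value was in virgin Ezh2 KO glands with prolactin for 24 members.

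**Figure D1:**
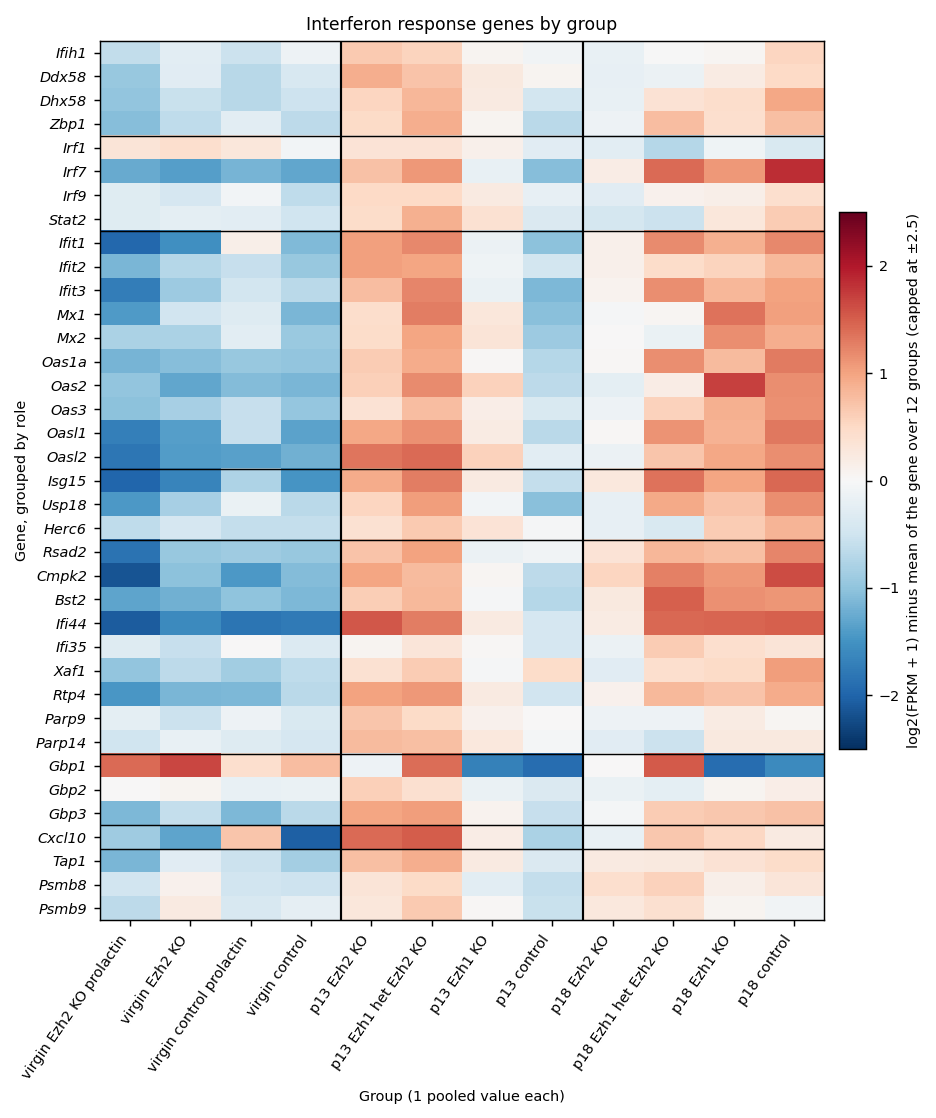
Level of each of the 37 genes (rows, grouped by role) in the 12 groups (columns), coloured by log2(FPKM + 1) minus the gene's own mean over the groups. The p13 Ezh2 KO, p13 Ezh1 het Ezh2 KO and p18 control columns are high for most rows and the virgin columns are low. The mean log2(FPKM + 1) over the genes was 4.59 in p18 Ezh1 KO and 4.55 in p18 Ezh1 het Ezh2 KO glands, close to 4.70 in p13 Ezh2 KO glands. Gbp1 and Irf1 depart from most rows.

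The ratio of a member's highest to its lowest group value ran from 1.99 for Gbp2 to 60.8 for Gbp1, with a median of 6.28. Over the 12 group values, Pearson's r between a member and the mean of the other members had a median of 0.93. It was highest for Ifit2 (0.98), at or above 0.8 for 28 members, and below 0.5 for Irf1 (-0.28) and for Gbp1 (-0.31). These r describe 12 pooled values in which stage, milk content and cell makeup also vary, so they carry no p-value.

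At p13 the interferon response genes were higher in Ezh2 KO glands than in control glands. Of the 37 members, 21 were past the threshold upward and none downward, with a median difference of 1.26, while 2.65% of all genes kept were past it upward and 6.59% downward, with a median of 0.01. Cxcl10, a chemokine that attracts activated T cells, had 29.4 FPKM in Ezh2 KO glands and 5.54 FPKM in control glands, a difference of 2.21. Ifit1, which binds foreign RNA caps, had 34.3 and 7.47 FPKM in these groups, a difference of 2.06. Next came Ifi44, an interferon-induced protein, with a difference of 1.97, and Ifit3, a partner of IFIT1, with 1.89. The lowest difference was that of Xaf1, a pro-apoptotic factor, at 11.2 FPKM in Ezh2 KO glands and 11.9 FPKM in control glands.

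In Ezh1 het Ezh2 KO glands at p13, 27 of the 37 members were past the threshold upward and none downward, with a median difference of 1.45 from control glands. Of all genes kept, 3.12% were past it upward and 3.19% downward. All 37 members had values above those of control glands. Gbp1 stood at 11.1 FPKM in Ezh1 het Ezh2 KO glands and 0.224 FPKM in control glands, a difference of 3.30. Ifit3 had 47.0 and 8.53 FPKM in these groups, a difference of 2.33. Mx1, a GTPase that blocks virus replication, had 7.10 and 0.633 FPKM, and Cxcl10 had 31.3 and 5.54 FPKM. Set directly against p13 Ezh2 KO glands, 1 member was past the threshold upward, which was Gbp1 with a difference of 1.52, and none downward, beside 2.8% and 0.666% of all genes. The median difference of the members in that comparison was 0.20.

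In p13 Ezh1 KO glands, whose Ezh2 alleles are not described as floxed, the members were also mostly above control glands but by less. Of the 37, 35 had higher values and 3 were past the threshold upward, beside 2.1% of all genes upward and 2.28% downward, and the median difference was 0.67. The count was 5 to 7 with a pseudocount of 0.1 FPKM, a common sum or a common upper quartile. The 3 were Oas2, at 5.72 FPKM in Ezh1 KO glands and 1.86 FPKM in control glands, and the low-level Mx1 and Mx2, at 3.05 and 3.04 FPKM in Ezh1 KO glands against 0.633 and 0.731 FPKM in control glands. Set directly against Ezh1 KO glands, 5 members were higher past the threshold in p13 Ezh2 KO glands (1.11% of all genes) and 10 in p13 Ezh1 het Ezh2 KO glands (1.28%), and none was lower in either (3.81% and 2.04%). These p13 comparisons reuse the same control or Ezh1 KO value, so they are set side by side and are not independent of each other.

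**Figure D2:**
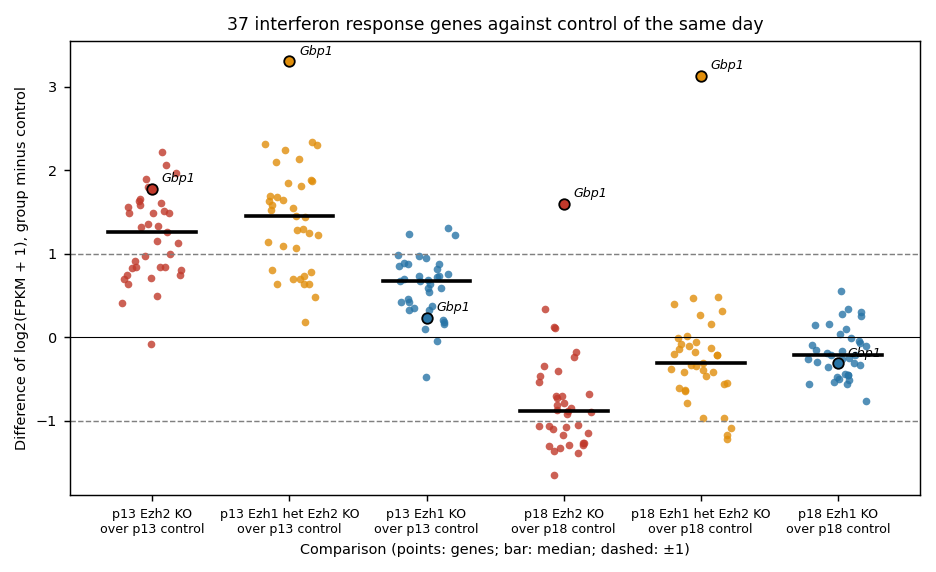
Difference of log2(FPKM + 1) from the control group of the same day for the 37 genes (points), with the median as a bar and the threshold of ±1 dashed; Gbp1 is outlined. The medians are 1.26, 1.45 and 0.67 at p13 and -0.89, -0.31 and -0.22 at p18 for Ezh2 KO, Ezh1 het Ezh2 KO and Ezh1 KO glands, and Gbp1 is above the other genes at p18 in both groups with floxed Ezh2.

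Among the roles, the 10 Ifit, Mx and Oas effectors had 9 members past the threshold upward in p13 Ezh2 KO glands and 10 in p13 Ezh1 het Ezh2 KO glands, with median differences of 1.48 and 1.83. In p13 Ezh1 KO glands 3 of the 10 were past it, with a median of 0.88. The OAS proteins make the second messenger that activates RNase L. Oas1a had 11.2, 14.1 and 7.04 FPKM in p13 Ezh2 KO, Ezh1 het Ezh2 KO and Ezh1 KO glands, against 3.86 FPKM in control glands. Oasl2, an OAS-like protein, had 51.4, 54.1 and 29.9 FPKM in the same order, against 16.2 FPKM in control glands. For both genes all 3 mutant groups lay above the control group.

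Of the transcription factors, Irf7, the factor that amplifies type I interferon production, had the widest spread. It had 74.8, 94.9 and 38.9 FPKM in p13 Ezh2 KO, Ezh1 het Ezh2 KO and Ezh1 KO glands, against 20.8 FPKM in p13 control glands. Irf9 had 41.5, 41.3 and 33.8 FPKM in these mutants, against 25.0 FPKM in control glands, so that none of its differences was past the threshold. Stat2, its partner, had 13.8, 18.8 and 13.0 FPKM, against 7.31 FPKM in control glands, and was past the threshold in Ezh1 het Ezh2 KO glands with a difference of 1.25. Irf1, a factor induced by interferon gamma, had 42.2, 42.3 and 36.4 FPKM, against 26.9 FPKM in control glands.

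The sensors Ifih1 (MDA5), Ddx58 (RIG-I), Dhx58 (LGP2) and Zbp1 detect viral nucleic acids. In p13 Ezh2 KO glands 1 of these 4 was past the threshold upward, Zbp1, at 28.7 FPKM against 12.4 FPKM in control glands. Dhx58 was just short of it, at 10.8 FPKM against 4.93 FPKM in control glands. In p13 Ezh1 het Ezh2 KO glands 2 of 4 were, Zbp1 at 39.1 FPKM and Dhx58 at 13.6 FPKM, against 12.4 and 4.93 FPKM in control glands. Of the ISG15 system, Isg15, a ubiquitin-like modifier, had 95.3, 123 and 58.6 FPKM in p13 Ezh2 KO, Ezh1 het Ezh2 KO and Ezh1 KO glands, against 32.9 FPKM in control glands. Usp18, which removes ISG15 and restrains receptor signalling, had 20.1, 29.1 and 12.8 FPKM, against 6.05 FPKM in control glands. Herc6, the mouse ISG15 ligase, was not past the threshold in any of the 3.

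Of the 9 other effectors, 4 were past the threshold upward in p13 Ezh2 KO glands and 5 in p13 Ezh1 het Ezh2 KO glands. Bst2 (tetherin), which holds budding virions at the cell surface, had the highest level of the members in each p13 group, with 326, 376 and 209 FPKM in p13 Ezh2 KO, Ezh1 het Ezh2 KO and Ezh1 KO glands, against 129.96 FPKM in control glands. Rtp4 had 61.1, 63.9 and 35.04 FPKM in these mutants, against 21.2 FPKM in control glands. The antiviral enzyme Rsad2 (viperin) had 18.3, 22.6 and 9.68 FPKM, against 10.1 FPKM in control glands, and Cmpk2, a mitochondrial nucleotide kinase, had 31.9, 27.5 and 16.1 FPKM, against 9.43 FPKM. Ifi35, Parp9 and Parp14 were not past the threshold in any p13 mutant group.

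Of the antigen-processing members, Tap1, a peptide transporter, had 56.1, 62.7 and 38.5 FPKM in p13 Ezh2 KO, Ezh1 het Ezh2 KO and Ezh1 KO glands, against 25.2 FPKM in control glands. The immunoproteasome subunit Psmb8 had 127, 142 and 84.2 FPKM in these mutants, against 67.0 FPKM, and its fellow subunit Psmb9 had 85.0, 111 and 71.3 FPKM, against 47.0 FPKM. Past the threshold were Tap1 in Ezh2 KO glands and all 3 genes in Ezh1 het Ezh2 KO glands.

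At p18 the order of the genotypes was turned round. In p18 Ezh2 KO glands 16 of the 37 members were past the threshold downward from p18 control glands and 1, Gbp1, upward, while 2.14% of all genes were past it downward and 2.38% upward. The median difference of the members was -0.89, and 33 of 37 had values below control. The downward count was 4 when all groups were set to a common sum of FPKM, and 6 with Ezh1 KO glands in place of control glands. Irf7 had 50.7 FPKM in Ezh2 KO glands and 161 FPKM in control glands, a difference of -1.65. Oas2 had 2.84 and 9.08 FPKM, Usp18 11.6 and 31.5 FPKM, and Xaf1 6.74 and 18.4 FPKM in these groups, with differences of -1.39, -1.36 and -1.33. Each had its p18 Ezh2 KO value below those of the other 3 p18 groups.

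The roles differed in their p18 counts. Of the 10 Ifit, Mx and Oas effectors, 7 were past the threshold downward, with a median of -1.17, and so were all 3 genes of the ISG15 system. Isg15 had 59.9 FPKM in p18 Ezh2 KO glands and 137 FPKM in p18 control glands. Of the transcription factors, Irf7 and Stat2 were past it, with Stat2 at 6.94 FPKM in Ezh2 KO glands and 15.7 FPKM in control glands, and Irf9 had 23.5 and 39.1 FPKM. None of the 3 antigen-processing genes was past the threshold downward. Tap1 had 38.4 and 45.6 FPKM, Psmb8 137 and 126 FPKM, and Psmb9 84.1 and 66.2 FPKM in p18 Ezh2 KO and control glands, with a median difference of 0.12 over the 3.

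Ezh1 het Ezh2 KO glands at p18 lay nearer to control. Of the 37 members 3 were past the threshold downward (1.55% of all genes) and 1 upward (1.23%), with a median difference of -0.31. The downward count was 5 with a pseudocount of 0.1 FPKM, a common sum or a common upper quartile, and 8 with a common sum without milk protein genes. Gbp1 had 12.4 FPKM in Ezh1 het Ezh2 KO glands and 0.536 FPKM in control glands, a difference of 3.13. The 3 lower genes were Herc6, at 1.71 FPKM against 5.33 FPKM in control glands, Stat2, at 6.40 FPKM against 15.7 FPKM, and Mx2, at 1.86 FPKM against 5.07 FPKM. Set directly against p18 Ezh2 KO glands, 10 members were higher past the threshold and none lower, beside 1.16% and 1.4% of all genes, with Gbp1, Bst2, Ifi44 and Irf7 first. The count was 1 with a common sum of FPKM, and also 1 with a common sum without milk protein genes. Bst2 had 601 FPKM in p18 Ezh1 het Ezh2 KO glands and 254 FPKM in p18 Ezh2 KO glands, a difference of 1.24. Irf7 had 119.9 and 50.7 FPKM in these groups, a difference of 1.23.

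In p18 Ezh1 KO glands no member was past the threshold in either direction from p18 control glands, with no test behind that count, beside 1.21% of all genes upward and 1.39% downward. The median difference was -0.22 and the extremes were Irf7, at 94.6 FPKM against 161 FPKM in control glands (-0.76), and Oas2, at 13.7 FPKM against 9.08 FPKM (0.55). Set directly against p18 Ezh1 KO glands, p18 Ezh2 KO glands had 6 members lower past the threshold (0.939% of all genes) and Gbp1 higher (1.04%). Ezh1 het Ezh2 KO glands had 4 lower (1.63%) and Gbp1 higher (0.974%), with Oas2 the lowest in both. Oas2 had 2.84 and 4.16 FPKM in p18 Ezh2 KO and Ezh1 het Ezh2 KO glands, against 13.7 FPKM in p18 Ezh1 KO glands.

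Taking both days, 32 of the 37 members were above control at p13 and below control at p18 in Ezh2 KO glands, and none was the other way round, while 30.7% of the 14273 genes kept were above control at p13 and below it at p18. Past the threshold in both directions were 11 members, Irf7, Ifit1, Mx1, Oas1a, Oas2, Oasl1, Oasl2, Isg15, Usp18, Cmpk2 and Ifi44, beside 80 of all genes kept (0.56%). The counts past the threshold both ways were computed only on the deposited scale and against control glands. The p18 downward count was below 11 with a common sum of FPKM or with Ezh1 KO glands in place of control glands. So was the p13 upward count with Ezh1 KO glands as reference or at a common luminal marker level, given below. Not all 11 would thus be past it both ways under those settings. The p13 and p18 groups have separate libraries and separate controls. In Ezh1 het Ezh2 KO glands 29 members were above control at p13 and below it at p18, and 2, Stat2 and Mx2, were past the threshold both ways, beside 25.6% and 0.392% of all genes kept. In Ezh1 KO glands the counts were 26 and 0, beside 20.8% and 0.308%.

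Levels also differed between stages within each genotype. In control glands, p18 over p13 had 23 members past the threshold upward and none downward, with a median of 1.32, while 3.55% of all genes were past it upward and 19.1% downward. The median of all genes in this comparison was -0.46. Milk protein genes took 48.1% of the summed FPKM in p18 control glands and 1.84% in p13 control glands. Relative to that median 30 members were past the threshold, and with a common sum of FPKM 14 were. The share of all genes was not computed for either count. Irf7 had 161 FPKM in p18 control glands and 20.8 FPKM in p13 control glands, a difference of 2.89. Cmpk2 had 50.5 and 9.43 FPKM, Ifit1 38.6 and 7.47 FPKM, and Usp18 31.5 and 6.05 FPKM in these groups.

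Between virgin and p13, by contrast, control glands had 3 members past the threshold upward (9.12% of all genes) and 1 downward (2.76%). Cxcl10 had 5.54 FPKM at p13 and 1.74 FPKM in virgin control glands, and Xaf1 had 11.9 and 5.07 FPKM. The third gene, Ifi44, had 4.802 and 1.28 FPKM, and the lower one was Gbp1. In Ezh2 KO glands the same step from virgin to p13 had 25 members upward (11% of all genes) and 1, Gbp1, downward (9.11%). Ifi44 had 21.7 FPKM in p13 and 1.57 FPKM in virgin Ezh2 KO glands, a difference of 3.14. Oasl2 had 51.4 and 6.85 FPKM, Cxcl10 29.4 and 3.53 FPKM, and Isg15 95.3 and 15.2 FPKM in these groups.

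In Ezh2 KO glands, p18 over p13 had 6 members past the threshold downward (4.1% of all genes) and none upward (1.1%), with a median of -0.70 beside -0.45 over all genes. The 6 were Cxcl10, Oasl2, Ifi44, Ddx58, Parp14 and Gbp3, led by Cxcl10 at 8.95 FPKM in p18 and 29.4 FPKM in p13 Ezh2 KO glands. Relative to the median of all genes, 2 members were past the threshold, and the count was 10 with a common sum of FPKM. In Ezh1 KO glands 8 members were past it upward (1.56% of all genes) and none downward (12.1%), led by Irf7 at 94.6 FPKM in p18 and 38.9 FPKM in p13 glands, followed by Ifi44, Bst2 and Oas2. That count was 0 with a common sum of FPKM, where the median of the members was -0.17 in place of 0.49, and 17 with a common upper quartile. In Ezh1 het Ezh2 KO glands 6 were past it downward (16% of all genes) and none upward (1.66%), with Stat2, Parp14, Mx1 and Mx2 first. Relative to the median of all genes, none of the 37 was past it downward in that genotype and 1 was upward. The downward count was 20 with a common sum of FPKM and 1 with a common upper quartile, where the median was 0.13 in place of -0.27. The scale thus decides these counts in both genotypes.

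**Figure D3:**
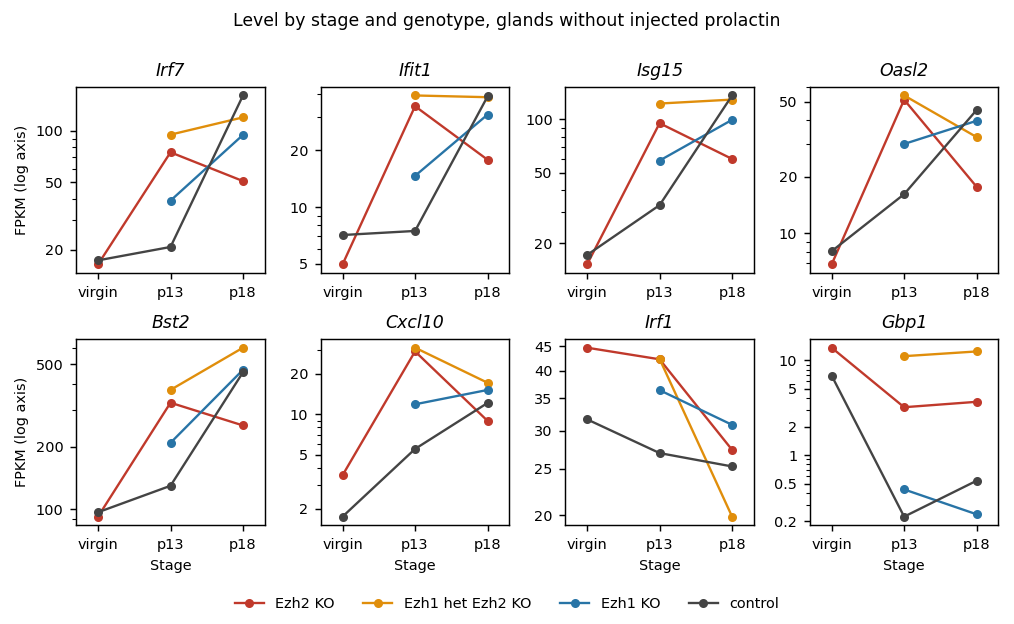
FPKM (log axis) of 8 members at the virgin stage, p13 and p18 by genotype, without injected prolactin; Ezh1 KO and Ezh1 het Ezh2 KO have no virgin group. For Irf7, Ifit1, Isg15 and Oasl2 the Ezh2 KO line is above the control line at p13 and below it at p18, as at 95.3 against 32.9 FPKM and 59.9 against 137 FPKM for Isg15, while Irf1 and Gbp1 follow other courses.

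Gbp1, a large GTPase of the guanylate-binding family induced by interferon gamma, was the member least like the others. It had 3.20 and 11.1 FPKM in p13 Ezh2 KO and Ezh1 het Ezh2 KO glands, against 0.434 FPKM in p13 Ezh1 KO glands and 0.224 FPKM in p13 control glands. At p18 it had 3.65 and 12.4 FPKM in Ezh2 KO and Ezh1 het Ezh2 KO glands, against 0.237 FPKM in Ezh1 KO glands and 0.536 FPKM in control glands. In virgin glands it had 11.2 FPKM with prolactin and 13.6 FPKM without in Ezh2 KO, and 5.16 FPKM with prolactin and 6.91 FPKM without in controls. In pregnancy, both groups with floxed Ezh2 thus lay above both groups without it, on both days. Set against Ezh1 KO glands in place of control glands, its differences were 1.55 and 3.07 at p13 and 1.91 and 3.44 at p18 for Ezh2 KO and Ezh1 het Ezh2 KO glands.

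Its family members did not share this order. Gbp2 had 72.6, 63.5 and 42.3 FPKM in p13 Ezh2 KO, Ezh1 het Ezh2 KO and Ezh1 KO glands, against 36.6 FPKM in p13 control glands. At p18 it had 42.1, 39.8 and 49.9 FPKM in these mutants, against 53.6 FPKM in control glands. Gbp3 had 46.3, 48.7 and 24.5 FPKM at p13, against 14.99 FPKM in control glands, and 22.2, 36.0 and 37.3 FPKM at p18, against 39.0 FPKM. Gbp1, Gbp2 and Gbp3 are similar in sequence, and how the authors assigned reads that match several of them is not stated. The same holds for Mx1 and Mx2, for Ifit3 and its near copy Ifit3b, and for Oas1a and Oas1g.

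**Figure D4:**
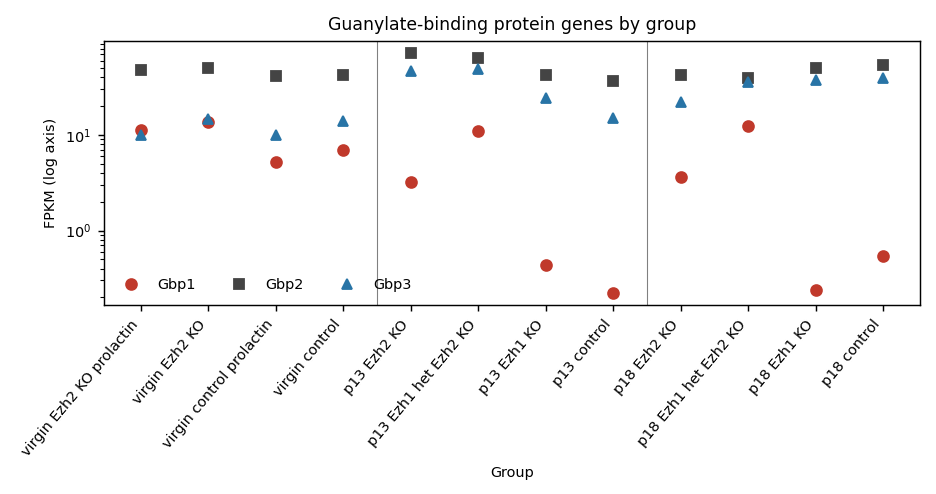
FPKM (log axis) of Gbp1, Gbp2 and Gbp3 in the 12 groups, with vertical lines between the virgin, p13 and p18 groups. Gbp1 is at 3.20 to 12.4 FPKM in the pregnant groups with floxed Ezh2 and at 0.224 to 0.536 FPKM in the pregnant groups without it, while Gbp2 and Gbp3 keep within 14.99 to 72.6 FPKM in pregnancy.

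Lymphocyte markers differed widely between the virgin groups. The 8 B cell markers summed to 1.22 FPKM with prolactin and 175 FPKM without in Ezh2 KO glands, and to 144 FPKM with prolactin and 6.12 FPKM without in control glands. All 8 were past the threshold in each genotype, downward in Ezh2 KO and upward in control. The 10 T and NK cell markers summed to 8.33 and 127 FPKM in Ezh2 KO glands, and to 86.5 and 9.19 FPKM in control glands, in the same order. The 6 neutrophil markers summed to 374 FPKM with and 34.7 FPKM without prolactin in Ezh2 KO glands, and to 197 FPKM with and 22.2 FPKM without in control glands. Of 7 plasmacytoid dendritic cell markers kept, 5 were past the threshold downward in Ezh2 KO glands and 3 upward in control glands. The protocol gives removal of the lymph node for the gland without prolactin, yet in Ezh2 KO mice that gland had the high lymphocyte sums. Whether columns hold lymph node tissue or were interchanged was not tested, so every comparison with a virgin group, those with p13 included, is given with that doubt.

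In virgin glands the interferon response genes differed little between untreated Ezh2 KO and control mice. None of the 37 was past the threshold in either direction, beside 3.35% of all genes upward and 0.911% downward, and the median difference was 0.06. The largest was that of Gbp1, 0.89, at 13.6 FPKM in Ezh2 KO and 6.91 FPKM in control glands. Irf7 had 16.4 FPKM in virgin Ezh2 KO and 17.4 FPKM in virgin control glands, and Isg15 had 15.2 and 17.2 FPKM. B cell markers, in contrast, were past the threshold upward for 8 of 8.

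Prolactin glands of control mice had 2 members past the threshold upward (4.76% of all genes) and none downward (1.72%) from the glands taken before the injection. The upward count was 5 with a pseudocount of 0.1 FPKM. The 2 were Cxcl10, at 17.4 FPKM with prolactin and 1.74 FPKM without, and Ifit1, at 18.2 FPKM with prolactin and 7.11 FPKM without. In Ezh2 KO mice no member was past it upward (2.75%) and 1 was downward (4.08%), which was Cmpk2 at 2.72 FPKM with prolactin and 7.14 FPKM without. That count was 6 with a common sum of FPKM. Ifit1 had 3.46 FPKM with and 4.96 FPKM without prolactin in Ezh2 KO mice. Among prolactin glands alone, 7 members were lower past the threshold in Ezh2 KO than in control mice (2.71% of all genes) and none higher (0.764%). Ifit1 had 3.46 FPKM in Ezh2 KO and 18.2 FPKM in control prolactin glands, a difference of -2.11. Cxcl10 had 5.13 and 17.4 FPKM, Ifit3 5.25 and 13.9 FPKM, and Usp18 4.402 and 11.9 FPKM, and the other 3 were Isg15, Oasl1 and Mx1.

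**Figure D5:**
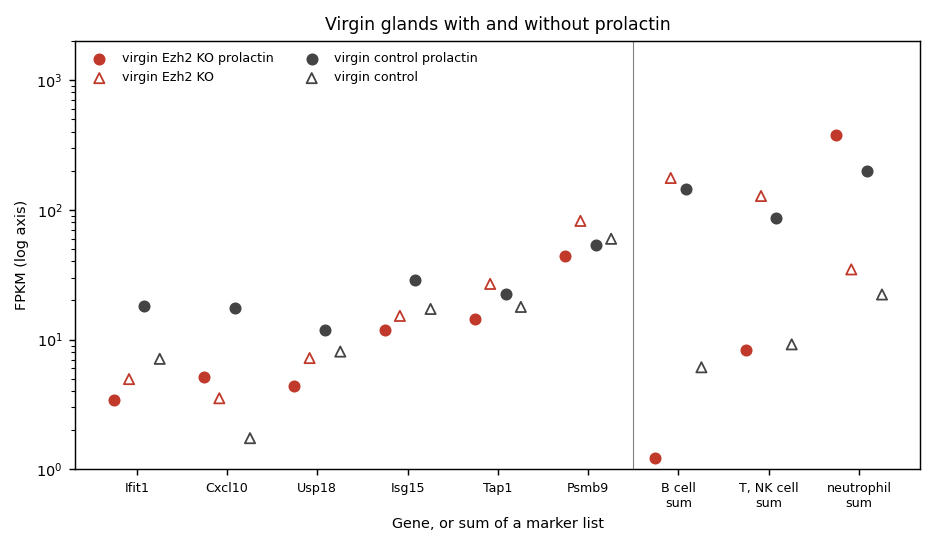
FPKM (log axis) of 6 members and the summed FPKM of 3 marker lists in virgin glands, with prolactin as filled circles and without as open triangles, Ezh2 KO in red and control in grey. Ifit1 and Cxcl10 are highest in control glands with prolactin, at 18.2 and 17.4 FPKM, and the B cell and T and NK cell sums are high in that group and in untreated Ezh2 KO glands.

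Markers of other cell types also differed between the pregnant groups. Milk protein genes took 14.99% of the summed FPKM in p13 Ezh2 KO glands, 7.61% in p13 Ezh1 het Ezh2 KO glands and 3.17% in p13 Ezh1 KO glands, against 1.84% in p13 control glands, with 11 of 15 genes past the threshold upward in Ezh2 KO glands. At p18 they took 30.7%, 41.8% and 42.5% in these mutants, against 48.1% in control glands, with 10 of 15 past it downward in Ezh2 KO glands. The milk share thus had the same order of Ezh2 KO and control glands as the members on each day. The 10 luminal epithelial markers summed to 2587, 1513 and 1711 FPKM in p13 Ezh2 KO, Ezh1 het Ezh2 KO and Ezh1 KO glands, against 1497 FPKM in p13 control glands. At p18 they summed to 1814, 2206 and 1972 FPKM in these mutants, against 2025 FPKM in control glands.

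The 10 macrophage markers summed to 758, 1401 and 1408 FPKM in p13 Ezh2 KO, Ezh1 het Ezh2 KO and Ezh1 KO glands, against 1191 FPKM in p13 control glands, and 5 of the 10 were past the threshold downward in Ezh2 KO glands. The 10 T and NK cell markers summed to 19.8, 57.7 and 14.9 FPKM in these mutants, against 9.63 FPKM in control glands, with 8 of 10 past it upward in Ezh1 het Ezh2 KO glands and 1 in Ezh2 KO glands. At p18 they summed to 17.4, 48.1 and 20.4 FPKM in the mutants, in the same order, against 20.4 FPKM in control glands, with 4 of 10 past it upward in Ezh1 het Ezh2 KO glands. The 8 B cell markers summed to 3.01, 29.9 and 3.55 FPKM in p13 Ezh2 KO, Ezh1 het Ezh2 KO and Ezh1 KO glands, against 3.20 FPKM in p13 control glands, with 5 of 8 past it upward in Ezh1 het Ezh2 KO glands. At p18 they summed to 1.40, 20.6 and 1.62 FPKM in these mutants, against 2.06 FPKM in control glands, with 3 of 8 past it. Lymphocyte markers were thus high in Ezh1 het Ezh2 KO glands on both days. The neutrophil markers summed to 33.97, 9.59 and 16.3 FPKM in the p18 mutants, against 8.68 FPKM in p18 control glands, and 2 of the 5 kept were past it upward in Ezh2 KO glands. The 6 red cell markers summed to 346, 448 and 456 FPKM in the p13 mutants, against 2066 FPKM in p13 control glands, with 5 of 6 past it downward in Ezh2 KO glands. At p18 they summed to 1449.6, 71.5 and 355 FPKM in the mutants, against 54.4 FPKM in control glands, with 5 of 6 past it upward in Ezh2 KO glands. The 8 skeletal muscle markers summed to 16.1, 21.0 and 2297 FPKM in p13 Ezh2 KO, Ezh1 het Ezh2 KO and Ezh1 KO glands, against 9482 FPKM in p13 control glands, and the 8 adipocyte markers to 12101, 21915 and 19406 FPKM, against 30728 FPKM. At p18 the adipocyte markers summed to 13165, 9767 and 10528 FPKM in these mutants, against 5773 FPKM in control glands. In Ezh2 KO glands 6 of 8 were past the threshold downward at p13 and 6 of 8 upward at p18. The adipocyte sum thus had the opposite order of Ezh2 KO and control glands to the members on each day. The part of these cell types in the p13 and p18 results was not tested. When every group was set to the same level of the luminal markers Krt8, Krt18, Krt19 and Epcam, 8 of the 37 members were past the threshold upward in p13 Ezh2 KO glands, in place of 21, and 27 in p13 Ezh1 het Ezh2 KO glands, as before. The p18 Ezh2 KO count stayed at 16 downward. The share of all genes past the threshold was not computed at this common luminal level.

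Interferon transcripts themselves were at or near the floor of the table. Of 19 ligand genes in the table, 1 reached 1 FPKM in any group, Ifne, a type I interferon of epithelia, with 2.14 FPKM in p18 control glands and at most 0.712 FPKM elsewhere. The summed FPKM of the 19 ran from 0.138 in virgin control glands to 2.502 in p18 control glands. Ifnb1, interferon beta, was listed at 0 in 5 groups and reached at most 0.363 FPKM. Ifng, interferon gamma, ran from 0.0173 to 0.399 FPKM, with its highest value in p13 Ezh1 het Ezh2 KO glands.

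Of 9 genes for interferon receptors and their kinases, none was past the threshold in either direction in the 6 comparisons of a mutant with control at p13 or p18. Their median difference was 0.09 in p13 Ezh2 KO glands and -0.04 in p18 Ezh2 KO glands. Likewise none of the 14 genes for nucleic acid sensing upstream of interferon was past it in these 6 comparisons. Of all genes kept, 1.21% to 3.12% were past it upward and 1.39% to 6.59% downward in the 6. At those shares, lists this short would hold few such genes or none. Of 12 genes that restrain these pathways, 1 was lower past it in p18 Ezh2 KO glands, Adar, an RNA-editing enzyme with an interferon-induced isoform, at 7.65 FPKM against 16.4 FPKM in control glands.

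In the prolactin comparison, Ifngr1, a chain of the interferon gamma receptor, was higher in both genotypes, at 307 FPKM with and 97.2 FPKM without prolactin in Ezh2 KO glands, and 255 and 88.1 FPKM in control glands. Socs3, a feedback inhibitor of JAK signalling, had 58.8 FPKM with and 6.17 FPKM without prolactin in Ezh2 KO glands, and 80.2 and 5.60 FPKM in control glands. For both genes the glands with prolactin lay above those without.

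Of a further 41 interferon-induced genes outside the 37, 12 were past the threshold upward and 2 downward in p13 Ezh2 KO glands, with a median difference of 0.50. In p13 Ezh1 het Ezh2 KO glands 14 were upward and none downward, with a median of 0.73, and in p13 Ezh1 KO glands none was in either direction, with a median of 0.30. The immunity-related GTPases Iigp1 and Igtp had 73.5 and 49.8 FPKM in p13 Ezh2 KO glands, against 18.3 and 13.9 FPKM in control glands. The 2 lower genes were Ifi205, at 9.25 FPKM in Ezh2 KO and 35.5 FPKM in control glands, and Ifi27l2a, at 747 and 1533 FPKM. At p18 in Ezh2 KO glands 3 were downward and 1 upward, with a median of -0.46. Ifi27l2a was the upward one, at 1039.65 FPKM in p18 Ezh2 KO glands and 384 FPKM in p18 control glands, so that it was opposite to most members on both days.

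Of 14 genes of MHC class I presentation, 1 was past the threshold upward in p13 Ezh2 KO glands and 2 in p13 Ezh1 het Ezh2 KO glands, and none was at p18 in a mutant. H2-Q7, a non-classical class I gene, had 98.01 and 120.5 FPKM in p13 Ezh2 KO and Ezh1 het Ezh2 KO glands, against 31.3 FPKM in control glands. Nlrc5, a transactivator of class I genes, had 9.31 FPKM in Ezh1 het Ezh2 KO glands and 3.94 FPKM in control glands. None of the 8 MHC class II genes was past it in these comparisons, with a median difference of -0.47 in p13 Ezh2 KO glands. For a list this short, that count too lies near the shares of all genes given above.

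Among the 14236 genes kept that are not members, the 12 whose profile over the 12 groups was most like the mean of the members had Pearson's r of 0.94 to 0.98. In falling order they were Apol9b, Irgm1, Slc11a2, D14Ertd668e (Phf11d), Apol9a, Igtp, Stxbp2, I830012O16Rik (Ifit3b), Nmi, Vps37b, Osbpl7 and Oas1g. Of these, 6 belong to the further interferon-induced genes above. Vps37b had 34.5 FPKM in p13 Ezh2 KO glands and 16.2 FPKM in p13 control glands, and 28.3 FPKM in p18 Ezh2 KO glands and 41.2 FPKM in p18 control glands. Slc11a2, a metal ion transporter, had 15.8 and 10.6 FPKM in the p13 groups, and 13.8 and 16.3 FPKM in the p18 groups, in the same order.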

How the data were processed

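Poly(A) RNA from mouse mammary glands was sequenced in 31 libraries of 12 groups, and the other 9 libraries of the series (chromatin immunoprecipitation and 3 inputs) were not analysed here. The authors deposited 1 FPKM value per gene and group, that is, values pooled over the libraries of a group. The sources used here do not say how libraries were combined or whether reads were counted by strand, so reads of overlapping antisense genes cannot be told apart. TopHat, Cufflinks and Cuffdiff, the aligners BWA and Bowtie, the read tools CASAVA, FastQC and Trim Galore, and HOMER are listed without roles or versions, with build mm9, per the submitters' processing notes. Read depth is unknown from these FPKM values, so no counting interval or detection limit can be given.

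Groups were taken from the sample labels. Genes with 1 FPKM or more in at least 1 group were kept. Differences of log2(FPKM + 1) were computed between group values with Python 3.11.15, pandas 2.3.3 and NumPy 2.4.6, and 1 or more in size counted as past the threshold. With 1 value per group no test was run. The calculation was tested on simulated data in which 200 genes at 5 FPKM or more were altered 4-fold. Such changes lie well past the threshold, so the simulation checks the arithmetic only. It does not cover low genes or the spread between libraries. The members, the other gene lists, the comparisons and the threshold were chosen with earlier results of these data known.

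In each comparison up to 4 members per direction were named, those with the largest difference past the threshold and 5 FPKM or more in either group, with fixed regulators and effectors where their role is described. The 12 genes most like the members were named by Pearson's r. Ifi44 in the comparison of p13 with virgin control glands, Ifi27l2a, Vps37b and the members named in full sets of 16 or fewer were named after their values were seen. Of the 37 members, 36 matched RefSeq by symbol and 1, Gbp1, by synonym. Promoter sequences come from RefSeq on GRCm38.p6, a build other than that of the FPKM values, and were used only for sequence. Alternatives were a pseudocount of 0.1 FPKM, no filter, and rescaling each group to a common sum, a common upper quartile (75th percentile), or a common sum without milk protein genes. A common luminal marker level, and Ezh1 KO in place of control, were added after the data were seen. Shares of all genes past the threshold were computed only on the deposited scale, with a pseudocount of 1 FPKM. A gene of the other lists is not reported here and was left out of their counts.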

Additional observations from a re-analysis of the deposited data

Results flagged for a closer look

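The difference of Ezh2 KO from control glands had opposite signs on the 2 days of pregnancy. The median over the 37 genes was 1.26 on the log2(FPKM + 1) scale at p13 and -0.89 at p18, and the difference between the days had a median of 2.15 over the genes. This difference was not tested, because each group has 1 pooled value on each day.

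Ifit1 had a prolactin difference of -0.42 in Ezh2 KO glands and 1.24 in control glands. The difference between the genotypes was not tested, for the same reason. B cell markers had the same signs, with sums of 1.22 FPKM with and 175 FPKM without prolactin in Ezh2 KO glands and 144 and 6.12 FPKM in control glands. Of the 37 members, 2 were past the threshold upward with prolactin in control glands, beside 4.76% of all genes. In Ezh2 KO glands 1 was past it downward, Cmpk2, beside 4.08%. The median difference of the members was 0.13 in control glands and -0.33 in Ezh2 KO glands.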

How the results depend on the processing

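No paired analysis was possible because the table gives 1 pooled value per group, and for the same reason leaving out each library in turn was not run. The counts of members past the threshold are upward at p13 and for prolactin in control glands and downward at p18 unless said otherwise, and no single gene past the threshold changed sign under any alternative. All 37 members pass the filter, so leaving it out could not change any of the 18 counts. With a pseudocount of 0.1 FPKM, 13 of 18 counts stayed within 1.5 times. The others were 7 in p13 Ezh1 KO and 5 downward in p18 Ezh1 het Ezh2 KO. For prolactin they were 5 upward in control and 3 downward in Ezh2 KO, and in virgin Ezh2 KO over control 1 upward.

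With a common sum of FPKM, the count was 6 in p13 Ezh1 KO and 4 downward in p18 Ezh2 KO. It was 5 downward in p18 Ezh1 het Ezh2 KO, and 1 upward in that group over p18 Ezh2 KO. It was 6 downward for prolactin in Ezh2 KO, and for p18 over p13 it was 14 upward in control, 10 downward in Ezh2 KO, 0 in Ezh1 KO and 20 downward in Ezh1 het Ezh2 KO. With a common upper quartile it was 5 in p13 Ezh1 KO and 5 downward in p18 Ezh1 het Ezh2 KO, and for p18 over p13 it was 2 downward in Ezh2 KO, 17 upward in Ezh1 KO and 1 downward in Ezh1 het Ezh2 KO. With a common sum without milk protein genes it was 6 in p13 Ezh1 KO and 8 downward in p18 Ezh1 het Ezh2 KO. It was 1 upward in that group over p18 Ezh2 KO. For prolactin in Ezh2 KO it was 4 downward, and for Ezh2 KO p18 over p13 it was 3 downward. The median of the members changed sign for p18 over p13 in Ezh1 KO (-0.17 with a common sum, 0.49 as deposited) and Ezh1 het Ezh2 KO (0.13 with a common upper quartile, -0.27 as deposited), and for prolactin in control (-0.04 with a common sum with or without milk protein genes, 0.13 as deposited).

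With a common luminal marker level the counts were 8 in p13 Ezh2 KO, 17 in p13 Ezh1 het Ezh2 KO over p13 Ezh2 KO and 5 downward in p18 Ezh1 het Ezh2 KO. With Ezh1 KO in place of control they were 5 in p13 Ezh2 KO, 10 in p13 Ezh1 het Ezh2 KO and 6 downward in p18 Ezh2 KO. The cause of these moves was not tested. Depth is unknown, so no limit from depth can be given, and values below 1 FPKM, as for Mx1, Mx2 and Gbp1 in control glands, are the least certain.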
